A study of Homo sapiens with 7 samples.

Results

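The genes described here are those of the human proteasome. They were taken as every gene symbol made of PSM, a letter from A to G and a number, which found 48 of the 26175 genes in the deposited expression table. Symbols of antisense RNAs that begin in the same way, and PSMC3IP, were left out by that rule. The symbols cover the 20S core, the 19S regulatory particle, the immunoproteasome subunits, the activators, an inhibitor and a set of assembly chaperones. The study mapped transcription start sites (TSSs) in T47D/A1-2 cells, which are T47D breast cancer cells engineered to make rat glucocorticoid receptor at high levels and to carry, in their genome, luciferase under the promoter of mouse mammary tumor virus, and the sample labels name the cells T-47D. The cultures had 10% serum, followed by 24 hours or more in 5% charcoal-stripped serum, so that all samples share 1 growth condition and no treated group is compared. Start-seq sequences the 5' ends of short capped nascent RNAs and places each start at a single nucleotide, and its calls came from replicate 1 of 2. RNA-seq gave 1 FPKM value per gene (mapped fragments scaled by transcript length and by the total of mapped fragments) from 3 replicates that the authors merged.

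The proteasome is the barrel-shaped protease that degrades ubiquitin-tagged proteins in the cytoplasm and nucleus. Its 20S core is built of stacked rings of alpha and beta subunits, and the active sites lie on 3 of the beta subunits. The 19S particle caps the core, binds ubiquitin chains, removes them, unfolds the substrate with a ring of ATPases and feeds it into the core. In immune cells and after interferon exposure, the active beta subunits are replaced by immunoproteasome versions that favour peptides for antigen presentation.

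FPKM is scaled by transcript length, so that levels can be set side by side between genes. Because the replicates were merged before deposit, no value has an error between replicates, the sequencing depth is unknown, and no difference between genes could be tested. Every FPKM below is therefore a description of 1 pooled measurement. In such bulk material, less RNA per cell and fewer cells that hold it cannot be told apart. T47D cells are of the luminal breast epithelial type, and the markers of that type were high. All 8 luminal genes lay between 44.1 FPKM (ESR1, estrogen receptor alpha) and 1142 FPKM (KRT8, a keratin). The basal keratins KRT5 and KRT14 were listed at 0, and the 3 blood cell and 2 endothelial markers were all under 1 FPKM. Of the 4 fibroblast markers, COL1A1, a collagen chain, stood at 8.82 FPKM and the other 3 were under 1.

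Proteasome genes were expressed at high levels as a group, and 46 of 48 (95.8%) reached 1 FPKM, against 46.9% of all genes in the table. Their median was 84.6 FPKM, with quartiles of 34.8 and 158. The median of all genes was 0.528 FPKM, and 7888 of them were listed at 0. Among genes that reached 1 FPKM, the median was 14.4 and the third quartile 36.0, and 35 of the 48 proteasome genes lay above that quartile. Values of 100 FPKM or more were found for 19 of the 48. Few genes of the table reach that level, since PSMD13 at 104 FPKM lay above 96.7% of them. On the log2(FPKM + 0.1) scale, the median level of proteasome genes exceeded that of all genes by 7.08. With the table limited to genes that reached 1 FPKM, that difference was 2.57.

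**Figure D1:**
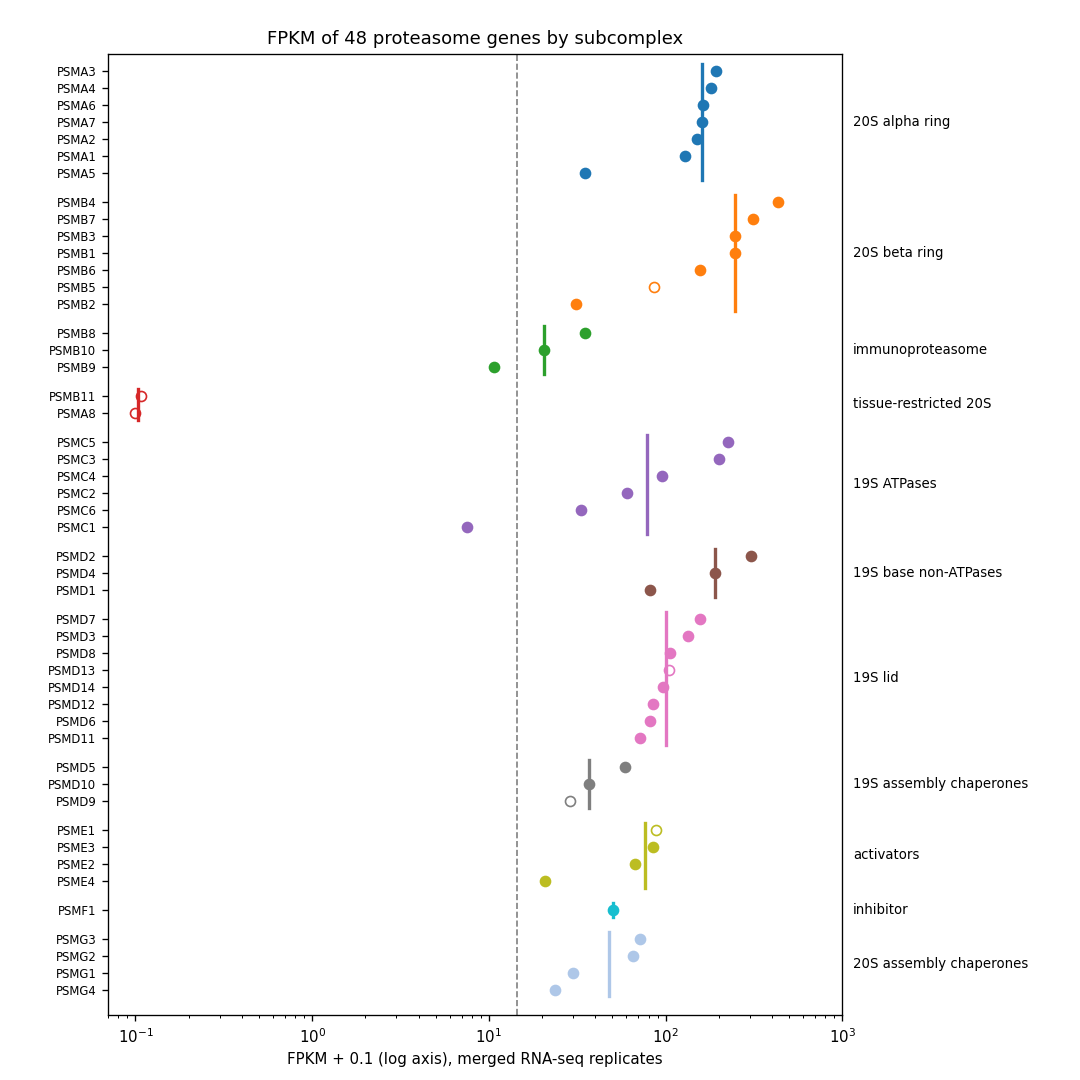
FPKM + 0.1 on a log axis for each of the 48 proteasome genes, grouped by subcomplex, with a coloured bar at each group's median, a dashed line at 14.4 FPKM (the median of all genes that reached 1 FPKM) and open circles for genes without a called gene TSS. The lid subunits lie in a narrow band from 71.6 to 157 FPKM, the ATPases spread from 7.45 to 224 FPKM, and PSMA8 and PSMB11 lie at the left edge.

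The genes of the alpha ring, which forms the gated entrance of the 20S core, had a median of 160 FPKM. PSMA3 stood at 193 FPKM, PSMA4 at 181, PSMA6 at 163, PSMA7 at 160, PSMA2 at 151 and PSMA1 at 129. These 6 values lie close together. The seventh, PSMA5, was lower at 34.8 FPKM, 5.54 times below PSMA3. Each complete alpha ring holds 1 copy of every one of these subunits.

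The beta ring, which encloses the proteolytic chamber, had a median of 246 FPKM and a wider range. PSMB4, a subunit without an active site, was the highest of all 48 genes at 430 FPKM and ranked 68 among the 26175 genes of the table. The other subunits without an active site were PSMB3 at 247 FPKM, PSMB1 at 246 and PSMB2 at 31.1. PSMB2 was thus 13.8 times below PSMB4. The catalytic subunits were PSMB7 (trypsin-like activity) at 312 FPKM, PSMB6 (caspase-like activity) at 156 and PSMB5 (chymotrypsin-like activity) at 86.0.

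The immunoproteasome counterparts of the 3 catalytic subunits were detected at lower levels in these epithelial cells. PSMB8, which takes the place of PSMB5, stood at 34.9 FPKM. PSMB10, which takes the place of PSMB7, stood at 20.4 FPKM, and PSMB9, which takes the place of PSMB6, at 10.6 FPKM. In every pair the constitutive gene was higher, by 15.3 times for PSMB7 over PSMB10, 14.6 times for PSMB6 over PSMB9 and 2.47 times for PSMB5 over PSMB8. Expressed as a share of the summed FPKM of the pair, the immunoproteasome gene held 6.15% for PSMB10, 6.40% for PSMB9 and 28.8% for PSMB8. The PSMB8 and PSMB9 values are listed on an alternate haplotype of the major histocompatibility complex (MHC) in the expression table, as are 295 of its 26175 rows on alternate or unplaced sequence. The effect of that placement on the values was not tested.

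**Figure D2:**
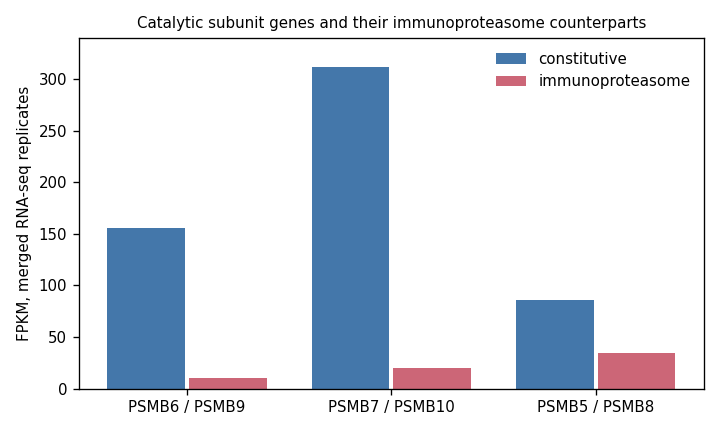
FPKM (linear axis, 1 merged value per gene, no error bars) of the 3 catalytic 20S subunit genes in blue beside the immunoproteasome gene that replaces each in red. The red bars reach 10.6, 20.4 and 34.9 FPKM for PSMB9, PSMB10 and PSMB8, and the blue bar is lowest for PSMB5 at 86.0 FPKM.

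Gene TSSs were called for PSMB6, PSMB7 and the 3 immunoproteasome genes, whereas none was called for PSMB5. The sequences around these starts are shown because they place the pairs at the nucleotide at which transcription began. Each line gives 40 bases of hg19, 5' to 3' on the strand of the gene, from 30 nts upstream of the called start, with the base before the start and the start itself in capitals.
PSMB6, chr17:4699433-4699472, plus strand: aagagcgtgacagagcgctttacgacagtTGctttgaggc
PSMB7, chr9:127177720-127177759, minus strand: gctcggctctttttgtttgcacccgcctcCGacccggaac
PSMB8, chr6:32811809-32811848, minus strand: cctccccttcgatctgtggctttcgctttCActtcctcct
PSMB9, chr6:32821561-32821600, plus strand: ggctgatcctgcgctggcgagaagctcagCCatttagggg
PSMB10, chr16:67970169-67970208, minus strand: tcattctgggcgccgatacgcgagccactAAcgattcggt
PSMB6, PSMB7 and PSMB8 started at a purine preceded by a pyrimidine, the usual arrangement at human starts. PSMB9 and PSMB10 did not. Their calls also lay apart from the nearest annotated start, at -334 nts for PSMB9 and -290 nts for PSMB10, where negative positions are upstream. Both lay inside the outermost annotated start of the gene.

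Other 20S genes are known for expression in single tissues, PSMA8 in the testis and PSMB11 in the thymus. PSMA8 was listed at 0 FPKM and PSMB11 at 0.00734 FPKM, and neither had a called gene TSS. These were the 2 genes of the 48 that did not reach 1 FPKM. The SD of log2(FPKM + 0.1) was 2.32 over the 48 genes, and 1.31 without these 2.

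The 6 ATPases form the ring of the 19S base that unfolds substrates, and their levels spread over the widest range of any subcomplex that reached 1 FPKM. PSMC5 stood at 224 FPKM, PSMC3 at 199, PSMC4 at 95.7, PSMC2 at 60.7, PSMC6 at 32.9 and PSMC1 at 7.45. The highest was 30.1 times the lowest, although the ring takes in 1 copy of each. The ATPases assemble as 3 pairs, and the partners differed within each pair. PSMC2 was 8.15 times PSMC1, PSMC3 was 6.04 times PSMC6, and PSMC5 was 2.34 times PSMC4. PSMC1, which 68.4% of all genes lay below, was the lowest of the 31 subunit genes of the constitutive 20S core and 19S particle. The annotation holds 13 pseudogenes named after PSMC1, more than after any other of the 48 genes, and 17 of the 48 have at least 1. How reads shared with such copies bear on the FPKM values was not tested. Without PSMC1, the range of the ATPases was 6.81-fold and their median rose from 78.2 to 95.7 FPKM.

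Of the non-ATPase subunits of the base, PSMD2, a large scaffold that docks ubiquitin-carrying factors, stood at 303 FPKM. PSMD4, a ubiquitin receptor, stood at 191 FPKM, and PSMD1, the other large scaffold, at 81.5 FPKM. The levels of the lid, which holds the deubiquitinating enzyme, lay close together. Its 8 genes ran from 71.6 FPKM for PSMD11 to 157 for PSMD7, a 2.19-fold range, with a median of 100 FPKM. The SD of log2(FPKM + 0.1) was 0.38 for the lid, 0.52 for the 3 chaperones of the 19S base (a 2.04-fold range), 0.86 for the alpha ring, 1.30 for the beta ring and 1.83 for the ATPases. PSMD14, the deubiquitinating enzyme itself, stood at 96.6 FPKM, 1.62 times below PSMD7, its partner in the lid. The other scaffold subunits were PSMD3 at 134 FPKM, PSMD8 at 106, PSMD13 at 104, PSMD12 at 84.2 and PSMD6 at 81.7.

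Over the 31 subunit genes of the constitutive core and the 19S particle, the median was 134 FPKM, and 23 of them lay within 2-fold of it. PSMB4, PSMB7 and PSMD2 lay above that band. PSMA5, PSMB2, PSMC1, PSMC2 and PSMC6 lay below it. The 14 core genes had a median of 162 FPKM and the 17 genes of the 19S particle a median of 96.6 FPKM, with overlapping ranges of 31.1 to 430 and 7.45 to 303.

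The chaperones of the 19S base had a median of 36.8 FPKM, against 96.6 for the 19S particle, and those of the 20S core a median of 47.5 FPKM, against 162 for the constitutive core. The chaperones of the 19S base were PSMD5 at 58.5 FPKM, PSMD10 (gankyrin) at 36.8 and PSMD9 at 28.7. The chaperones of the 20S core act as the pairs PSMG1 with PSMG2 and PSMG3 with PSMG4. PSMG2 stood at 65.0 FPKM, 2.16 times PSMG1 at 30, and PSMG3 at 71.8 FPKM, 3.06 times PSMG4 at 23.5. The highest of these 7 chaperone values, 71.8 FPKM, was below the median of the 31 subunit genes.

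Activators replace the 19S particle at the ends of the core. PSME1 and PSME2, which form the interferon-inducible activator together, stood at 88.2 and 67.4 FPKM, a ratio of 1.31. PSME3, the nuclear activator of the same family, stood at 85.0 FPKM. PSME4, a single large protein that opens the core, was lower at 20.8 FPKM, 4.09 times below PSME3. PSMF1, named as an inhibitor of the core, stood at 50.1 FPKM.

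A gene TSS was called for 42 of the 48 genes (87.5%, exact Clopper-Pearson 95% interval 74.8% to 95.3%), against 41.7% of the genes that matched the annotation. Among genes with at least 10 FPKM the shares were nearer to each other, at 41 of 45 (91.1%) for proteasome genes and 86.2% for all. The interval of the former, 78.8% to 97.5%, includes the latter. These intervals, and those below, reflect only the number of calls counted in 1 library, since no second library was compared. The genes are a fixed list and not a random sample. Whether an interval includes a background share is therefore no test of enrichment. The authors required a minimum number of reads for a call, but the deposited calls carry a score of 0 throughout, so the reads behind each single call were not analysed here.

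The 6 genes without a call were not all weakly expressed. PSMD13 at 104 FPKM, PSME1 at 88.2 FPKM, PSMB5 at 86.0 FPKM and PSMD9 at 28.7 FPKM had none, besides PSMA8 and PSMB11. At PSMB5 and PSME1, no call of any kind lay within 1000 nts of the annotated starts. At PSMD13, the called gene TSS was that of SIRT3, a mitochondrial deacetylase, on the other strand 612 nts upstream of the PSMD13 start, with a uaTSS of its own 454 nts upstream of that start. SIRT3 stood at 12.3 FPKM. At PSMD9, a gene TSS on the other strand lay 92 nts upstream, and no gene with an FPKM value was assigned to it. A gene TSS on the same strand as PSMD9 lay 29295 nts downstream of its start, near its 3' end, and was assigned to WDR66.

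The 42 calls lay at a median of 7.50 nts from the nearest annotated start, against 10 nts over all 10318 gene TSSs that could be assigned. The third quartiles were 25.2 and 51 nts. Of the 42 calls, 38 lay within 50 nts. The other 4 were all upstream of the nearest annotated start, PSMB10 at -290 nts, PSMB9 at -334, PSMD10 at -504 and PSMG1 at -524. The PSMB10 call was still 589 nts inside the outermost annotated start of its gene. At 8 genes, PSMA1, PSMA6, PSMB9, PSMC2, PSME3, PSMF1, PSMG2 and PSMG4, the call lay over 1000 nts inside the outermost annotated start. The PSMD10 call faced that of ATG4A, an autophagy protease at 8.53 FPKM, which was called on the other strand 293 nts downstream. The uaTSS of ATG4A lay 334 nts downstream of the annotated start of PSMD10.

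Antisense starts were described as the study defines them. An upstream antisense TSS (uaTSS) lies on the other strand upstream of a gene TSS, and a downstream antisense TSS (daTSS) lies on the other strand within the first part of the gene. In the deposited calls uaTSSs reached up to 1000 nts and daTSSs up to 2000 nts from the gene TSS. A uaTSS accompanied 26 of the 42 gene TSSs of proteasome genes (61.9%, 45.6% to 76.4%), against 53.1% of all 10391 gene TSSs. A daTSS accompanied 11 of 42 (26.2%, 13.9% to 42.0%), against 28.4% overall. Both backgrounds lie inside the intervals of the proteasome genes.

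**Figure D3:**
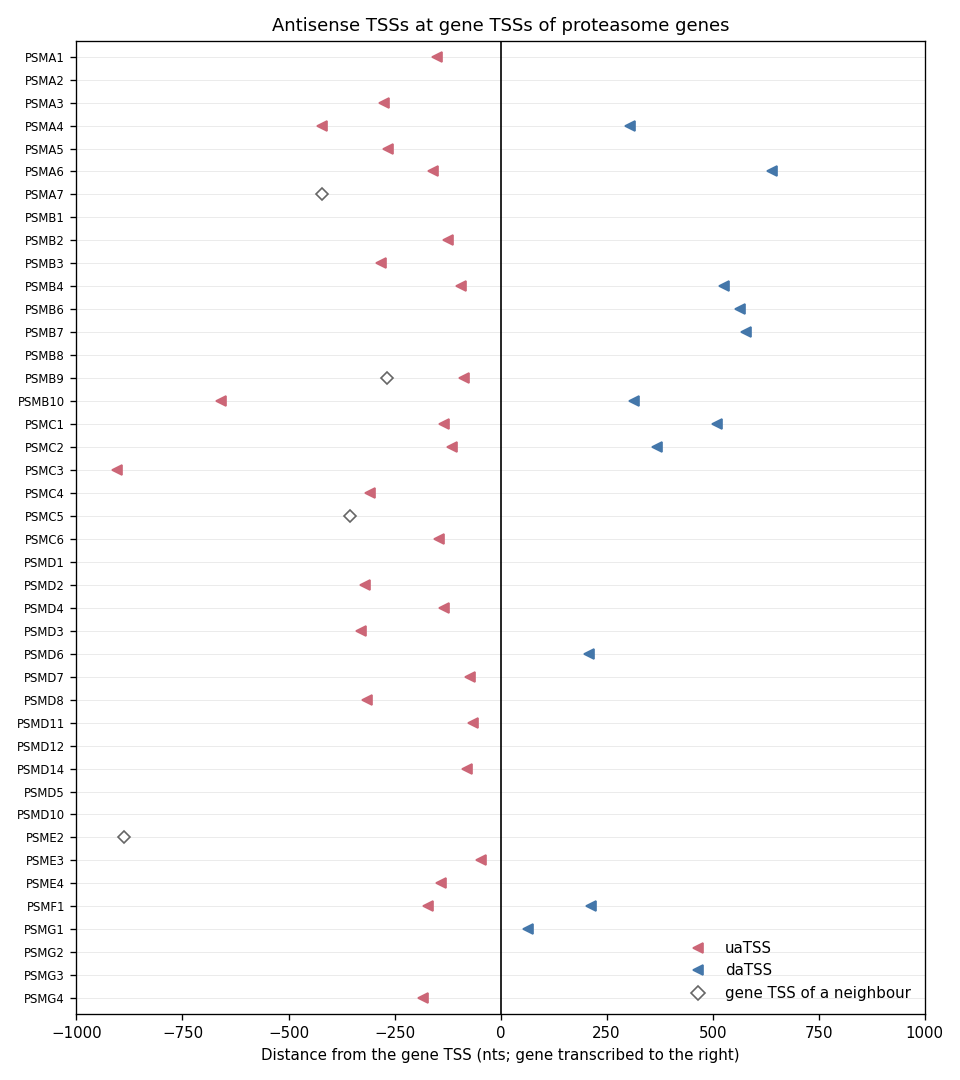
Position of each uaTSS (red), daTSS (blue) and gene TSS of a neighbour on the other strand upstream (open diamonds) relative to the gene TSS at 0, in nts, for the 42 proteasome genes with a called gene TSS, with transcription of the gene to the right. Most red markers sit within 200 nts of the start (16 of 26), the blue markers spread from 64 to 639 nts, and 12 rows hold neither colour.

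The uaTSSs of proteasome genes lay at a median of 154 nts upstream (quartiles 116 and 301), against 200 nts over all gene TSSs. The 95% interval of that median, 123 to 282 nts, includes 200 nts. The nearest were at PSME3 (46 nts), PSMD11 (66 nts), PSMD7 (71 nts) and PSMD14 (78 nts). The farthest were at PSMC3 (904 nts), PSMB10 (660 nts) and PSMA4 (421 nts). The PSMB10 distance was taken from a call 589 nts inside the outermost annotated start. By subcomplex, uaTSSs were called at 5 of 7 alpha ring genes, 3 of 6 beta ring genes, 5 of 6 ATPases, 5 of 7 lid genes and 2 of 3 base scaffold and receptor genes. They were called at 2 of 3 immunoproteasome genes, 2 of 3 activators and PSMF1. They were called at 1 of 4 chaperones of the core and at neither of the 2 chaperones of the 19S base that had a gene TSS. Each of these counts rests on 7 genes or fewer.

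The daTSSs lay at a median of 368 nts downstream, from 64 to 639 nts, against 507 nts over all gene TSSs. The 95% interval of that median, 208 to 578 nts, includes 507 nts. In the beta ring, they were called 528 nts downstream of the PSMB4 start, 565 nts downstream of PSMB6 and 578 nts downstream of PSMB7. In the alpha ring, they lay at 305 nts for PSMA4 and 639 nts for PSMA6. The 2 ATPases with a daTSS were PSMC2 at 368 nts and PSMC1 at 510 nts. The remaining daTSSs belonged to PSMD6 at 208 nts, PSMF1 at 213 nts, PSMB10 at 314 nts and PSMG1 at 64 nts. Of the 11, 9 (81.8%) lay beyond the end of exon 1, against 76.6% of the 2940 daTSSs at gene TSSs assigned to a gene. With a position counted as exonic when any transcript of the gene has an exon there, 7 of 11 (63.6%) fell in an exon, against 35.9% of the 2940. Those of PSMB10, PSMC1 and PSMC2 (27.3%) fell in an intron, against 60.1%. That of PSMG1 lay outside the annotated gene, since its gene TSS was called 524 nts upstream of the annotation. These shares rest on 11 daTSSs, and their differences from the background were not tested.

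Some promoters are shared with a gene that is transcribed in the opposite direction. Such a neighbour, called up to 1000 nts upstream on the opposite strand, was found at 4 of 42 proteasome gene TSSs (9.52%), against 11.5% overall. PSMB9 was paired with TAP1, a peptide transporter of antigen presentation, 268 nts away and at 45.8 FPKM, 4.31 times PSMB9 itself. PSMC5 was paired with FTSJ3, a factor in ribosomal RNA processing, 355 nts away at 51.6 FPKM. PSMA7 was paired with SS18L1 (420 nts, 7.77 FPKM), and PSME2 with RNF31, a ubiquitin ligase (888 nts, 7.49 FPKM). Of the 4, PSMB9 had a uaTSS, 85 nts upstream and so between its own start and that of TAP1. Without these neighbours, 25 of 38 proteasome gene TSSs (65.8%) had a uaTSS, against 57.9% of all gene TSSs without such a neighbour.

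By their antisense calls, 19 of the 42 genes had a uaTSS only, 7 had both kinds, 4 had a daTSS only and 12 had neither. The shares were 45.2%, 16.7%, 9.52% and 28.6%, against 35.6%, 17.5%, 11.0% and 35.9% of all gene TSSs. The genes with both were PSMB4, PSMA4, PSMA6, PSMC2, PSMF1, PSMB10 and PSMC1, which include both the highest (430 FPKM) and the lowest (7.45 FPKM) of the 42. The genes with neither were PSMB1, PSMC5, PSMA7, PSMA2, PSMD12, PSMD1, PSMG3, PSME2, PSMG2, PSMD5, PSMD10 and PSMB8. High FPKM values therefore also occurred without a uaTSS or daTSS, as at PSMB1 with 246 FPKM and PSMC5 with 224 FPKM. At PSMC5, however, the gene TSS of FTSJ3 was called on the other strand 355 nts upstream.

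The median FPKM was 96.6 for proteasome genes with a uaTSS only, 60.7 with both, 119 with a daTSS only and 76.7 with neither. The corresponding medians over all gene TSSs were 18.6, 21.3, 13.2 and 13.9 FPKM. The 4 ranges of the proteasome genes overlap, from 10.6 to 303, 7.45 to 430, 30 to 312 and 34.9 to 246 FPKM. Set against the presence of a uaTSS alone, the medians were 96.1 FPKM with and 81.6 FPKM without. For a daTSS they were 81.7 FPKM with and 85.0 FPKM without.

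**Figure D4:**
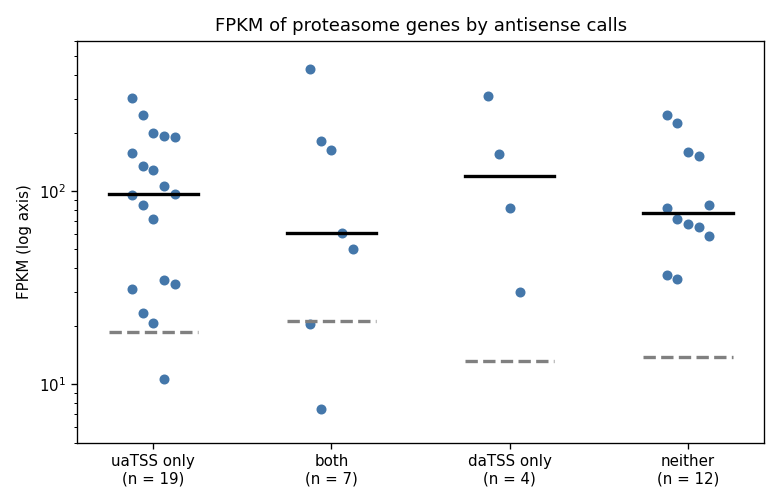
FPKM on a log axis of the 42 proteasome genes with a called gene TSS, by class of antisense calls, with a black bar at the median of the proteasome genes and a dashed grey bar at the median of all gene TSSs in that class. The black bars lie at 96.6, 60.7, 119 and 76.7 FPKM, each above its grey bar, and the point clouds of the classes overlap.

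Proteasome genes are known targets of NFE2L1, a transcription factor that raises their transcription when proteasome activity falls. With a small MAF partner it binds antioxidant response elements (AREs), whose core was searched here as TGACNNNGC on both strands from 250 nts upstream to 50 nts downstream of each called start. A core was found at 12 of the 42 gene TSSs (28.6%, 15.7% to 44.6%), against 14.9% of all gene TSSs. When the core had to be preceded by A, 1 of 42 (2.38%) held it, against 2.10% overall. In the window from 500 nts upstream to 100 nts downstream, the shares were 31.0% and 24.8%. A match is a description of letters and not evidence of binding.

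The 12 genes were PSMA4 and PSMA7 of the alpha ring, PSMB3 and PSMB6 of the beta ring, PSMC3 and PSMC4 of the ATPases, PSMD1 of the base, PSMD3 and PSMD12 of the lid, the chaperone PSMD5, and the activators PSME2 and PSME4. None of the 3 immunoproteasome genes, the 4 core chaperones (PSMG1 to PSMG4) or PSMF1 held a core in these windows. In RefSeq promoters, which start from the annotation, PSMB9, PSMG1 and PSMG2 held one and PSMA4 and PSMC3 did not. PSMA7 and PSMB6 had no RefSeq promoter to search. Of the 14 cores, 12 read in the direction of the gene and 11 began upstream of the called start. Neither count was compared with the cores at all gene TSSs. Most of the searched window lies upstream of the start, so the count of upstream cores shows no preference for that side. The 6 promoters with a core and the highest FPKM are shown on the strand of the gene from 5' to 3', ending 20 nts into the transcript, with each core in capitals. Coordinates are hg19.
PSMB3, chr17:36908870-36909063, plus strand, core at -154: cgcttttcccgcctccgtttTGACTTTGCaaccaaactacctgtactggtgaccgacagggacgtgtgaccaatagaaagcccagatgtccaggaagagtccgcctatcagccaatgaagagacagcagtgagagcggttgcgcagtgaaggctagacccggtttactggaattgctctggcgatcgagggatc
PSMC3, chr11:47447782-47447831, minus strand, core at 3: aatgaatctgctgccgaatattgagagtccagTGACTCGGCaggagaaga
PSMA4, chr15:78832982-78833137, plus strand, core at -116: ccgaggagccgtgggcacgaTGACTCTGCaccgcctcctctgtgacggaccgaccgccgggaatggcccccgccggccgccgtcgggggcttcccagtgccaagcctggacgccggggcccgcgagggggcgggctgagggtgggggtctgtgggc
PSMA7, chr20:60718386-60718589, minus strand, cores at -164, -120 and -100: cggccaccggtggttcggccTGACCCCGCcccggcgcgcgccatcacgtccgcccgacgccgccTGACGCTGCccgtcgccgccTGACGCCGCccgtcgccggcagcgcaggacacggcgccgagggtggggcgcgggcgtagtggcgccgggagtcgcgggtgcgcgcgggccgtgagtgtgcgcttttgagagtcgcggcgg
PSMB6, chr17:4699420-4699482, plus strand, core at -23: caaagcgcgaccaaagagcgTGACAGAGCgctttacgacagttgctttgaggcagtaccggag
PSMD3, chr17:38136994-38137043, plus strand, core at -1: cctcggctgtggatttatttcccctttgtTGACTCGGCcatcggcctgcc
PSMC3 and PSMD3 share the letters TGACTCGGC, placed at the called start or just inside the transcript. PSMA7 was the gene with more than 1 core, and 2 of its 3 cores overlap a GC box. PSMB3 carries the core upstream and, nearer the start, a pair of CCAAT boxes.

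Further sequence elements were searched in the same window and on both strands. The core of the ETS family site, CCGGAAG, was found at 15 of 42 gene TSSs (35.7%, 21.6% to 52.0%), against 19.7% overall. Its background lies below that interval. The 14.9% of the ARE core lies just below the lower bound of 15.7% given for its share. Enrichment was not tested for either core. For the ARE core, the shares lay closer in the wider window (31.0% against 24.8%) and with the longer core (2.38% against 2.10%). In RefSeq promoters they did not (30.6% against 13.6%). The background there was all 27305 genes with such a promoter, with or without a called gene TSS, and so is not the same. Of the 19 ETS cores, 11 (57.9%) began 1 to 60 nts upstream of the called start, against 38.9% of the 2511 ETS cores at all gene TSSs. These 11 lay in 10 genes, among them PSMB7 (-38), PSMD14 (-39), PSMC2 (-43) and PSMB1 (-45). The share rests on 19 cores, and its difference from the background was not tested. A pair of the cores in PSMG3 overlap each other on opposite strands. Of genes with a gene TSS, an ETS core was found at 5 of 7 in the lid and 3 of 6 ATPases. In the beta ring it was found at 2 of 6, and in the alpha ring at 1 of 7. Each of these counts is small. Of the 12 genes with an ARE core, PSMD12 and PSME4 also held an ETS core (16.7%), against 19.7% of all gene TSSs with an ARE core.

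**Figure D5:**
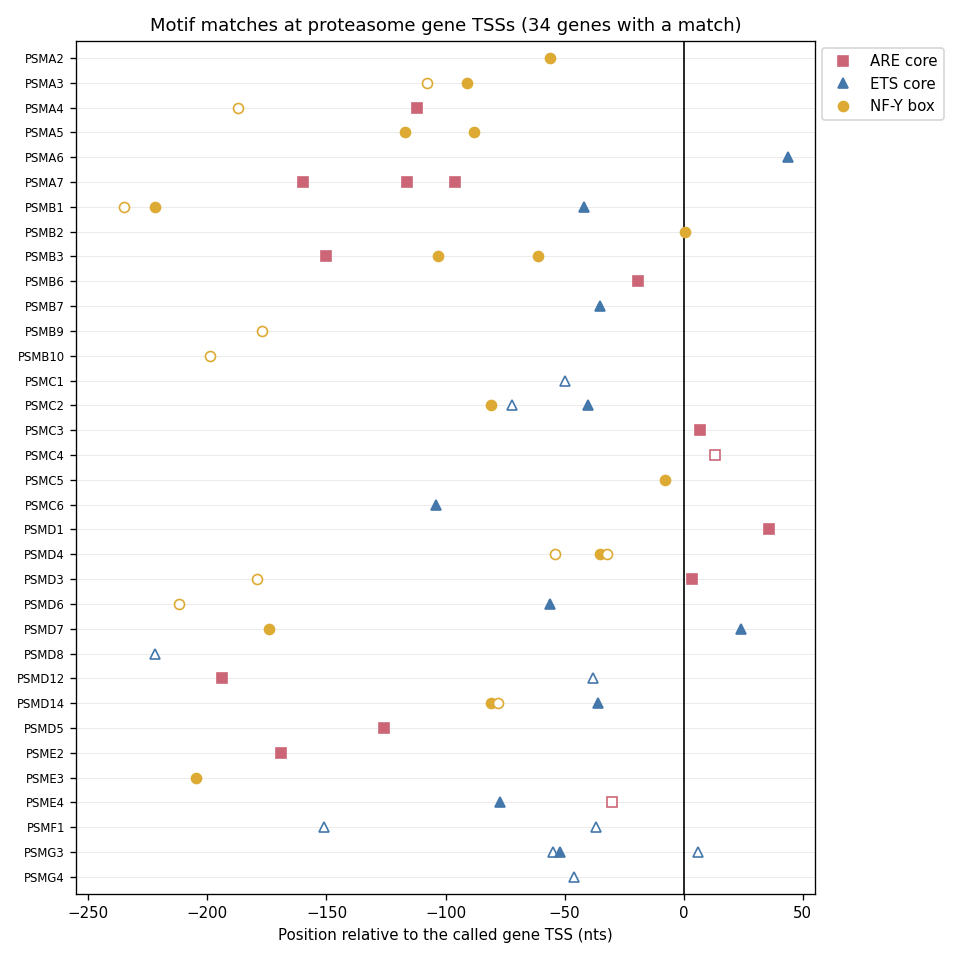
Positions of motif centres in nts, relative to the called gene TSS at 0, of ARE cores (squares), ETS cores (triangles) and NF-Y boxes (circles) in the 34 proteasome genes with at least 1 of them, filled where the letters read in the direction of the gene and open where they read on the other strand. Of the ETS cores, 11 of 19 begin in the 60 nts before the start, and the first bases of the ARE cores spread from -198 to 32.

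CCAAT, the box bound by NF-Y, was found at 17 of 42 (40.5%, 25.6% to 56.7%), against 35.3% overall. The GC box GGGCGG, bound by SP1, was found at 29 of 42 (69.0%, 52.9% to 82.4%), against 72.4% overall. TATAAA was found at 3 of 42 (7.14%, 1.5% to 19.5%), against 4.57%, and in PSMC1, PSMC5 and PSMG1 it began between -212 and -175, away from the place a TATA box takes. A purine at the start preceded by a pyrimidine was present at 31 of 42 (73.8%, 58.0% to 86.1%), against 66.1%. For these 4 elements, the shares over all gene TSSs lie inside the intervals of the proteasome genes. The windows were 61.3% G and C at the median, from 49.7% at PSMC2 to 81% at PSMA7, against 66% overall. The CpG observed to expected ratio had a median of 0.813, from 0.350 at PSMD10 to 1.12 at PSMA7, against 0.851 overall.

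Other genes of the pathway were read from a list. ADRM1 and SHFM1, the subunits of the 19S particle whose symbols fall outside the rule, stood at 127 and 194 FPKM, within the range of the subunit genes. Among the factors that assemble, recycle or regulate the particle, TXNL1, a thioredoxin-like protein, stood at 104 FPKM and POMP, the maturation factor of the core, at 62.9 FPKM. The deubiquitinating enzymes UCHL5 and USP14, which sit on the 19S particle, stood at 36.5 and 34.2 FPKM.

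UBB, a polyubiquitin gene, stood at 546 FPKM, above every proteasome gene. RPS27A, which encodes ubiquitin fused to a ribosomal protein, stood at 50.9 FPKM. UBA1, the main ubiquitin-activating enzyme, was at 200 FPKM and UBA6, the other one, at 12.3 FPKM. The shuttle factors that carry ubiquitinated proteins to the particle ran from 12.5 FPKM for DDI2 to 139 FPKM for RAD23B.

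NFE2L1 stood at 111 FPKM and its relative NFE2L2, which serves the oxidative stress response, at 40.0 FPKM. Among the genes whose products help bring NFE2L1 to its active form, VCP, an ATPase that extracts proteins from membranes, stood at 150 FPKM. NGLY1, which removes N-glycans, stood at 20.4 FPKM. The small MAF partners were lower, with MAFK at 15.5 FPKM, MAFG at 7.92 and MAFF at 1.51. NFE2L1 had a uaTSS 734 nts upstream of its gene TSS and no daTSS. In the MHC, TAP1 at 45.8 FPKM and TAP2 at 19.3 FPKM lie beside PSMB8 and PSMB9, and neither had a uaTSS or a daTSS.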

How the data were processed

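TSS calls of Start-seq replicate 1 and FPKM values of 3 merged RNA-seq replicates were used. Start-seq replicate 2 and the MNase-seq and FAIRE-seq samples were not used here. The authors deposited the expression values as FPKM from Cufflinks, 1 column for the merged replicates, with 0 per-sample columns. The deposited call files give single-nucleotide positions in hg19 with a score of 0 in every line. The submitters' processing notes name cutadapt 1.2.1, Bowtie 0.12.8, TopHat2 2.0.4, Picard 1.118 and Cufflinks 2.2.1.

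Members and lists were chosen with earlier results of these data known. Every member is named, besides the pathway list, cell type markers and neighbours called nearby. Some genes of the pathway list are not reported here. SIRT3, ATG4A and WDR66 were named after their values were seen. Sequences are those of catalytic and immunoproteasome starts and of the 6 promoters with an ARE core and the highest FPKM. Each gene TSS was assigned to the gene of the FPKM table with the nearest start on the same strand within 1000 nts. Read-through genes without an FPKM value were passed over, a choice made after the data were seen. Gene models were GENCODE lifted to GRCh37, whose chromosomes are those of hg19. Symbols matched directly for 22337 genes, through a RefSeq synonym for 1314 and not at all for 2524, and all 48 proteasome genes matched. The log2 scale used a pseudocount of 0.1. The assignment and the motif search were tested on simulated data. No test between groups was possible, because each assay gave 1 set of values. Python 3.11.15, numpy 2.4.6, scipy 1.17.1 and matplotlib 3.10.9 were used.

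Alternatives were a pseudocount of 1, a minimum of 1 FPKM, other assignment windows and gene sets, either strand, wider motif windows, a longer ARE core, RefSeq promoters and leaving out single genes or distant calls.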

Additional observations from a re-analysis of the deposited data

How the results depend on the processing

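Of 57 alternatives, 53 left a value inside its interval or, where it had none, moved it by less than 1.5 times. Many of the 53 could not move a value, so this count says little about stability. A minimum of 1 FPKM removed only PSMA8 and PSMB11, and so changed no other subcomplex. Keeping 1 gene TSS per symbol removed no call. A shorter daTSS limit removed none either, since the farthest lay at 639 nts. For subcomplex medians, the interval was the full range of the group. The SD of log2 FPKM over the 48 genes fell from 2.32 to 1.31 with a minimum of 1 FPKM, which removes PSMA8 and PSMB11. The median log2 difference between proteasome genes and all genes was 7.08, against 5.81 with a pseudocount of 1 and 2.57 with a minimum of 1 FPKM, which removes the genes at 0. The share of gene TSSs with an ARE core was 28.6%, against 2.38% with the core preceded by A, where the background also fell, to 2.10%. In RefSeq promoters, which were not placed by these calls, 11 of 36 (30.6%) held a core. The share was 13.6% over all 27305 genes with such a promoter, with or without a called gene TSS. PSMB9, PSMG1 and PSMG2 were gained and PSMA4 and PSMC3 lost. The 36 leave out genes with no RefSeq promoter to search. Among these were PSMA7 and PSMB6, which held a core near their called starts. Gene TSSs were assigned to between 40 and 44 proteasome genes under the other assignments. The strictest lost PSMA2 and PSMB10 to read-through genes, and use of the table's own loci lost PSMB8 and PSMB9. No value is left for PSMA8 and PSMB11 with a minimum of 1 FPKM. No paired analysis was possible because the RNA-seq replicates were merged and the calls come from 1 library, and for the same reason no replicate could be left out. Leaving out single genes or distant calls, the loci of the table and the read-through assignment were added after the data were seen.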
